A study of Mus musculus with 9 samples.

Results

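The genes described here encode the nuclear-encoded subunits of the mitochondrial respiratory chain and ATP synthase. They were taken by symbol from the protein-coding rows of the deposited expression table, as Nduf subunit genes with a letter and number, the Sdh subunits, Uqcr genes, Cyc1, Cox4 to Cox8 genes and Atp5 genes. The rule found 86 rows of 54876 genes, with 35 in complex I, 4 in complex II, 9 in complex III, 20 in complex IV and 18 in complex V. Ndufa4 and its paralogue Ndufa4l2 were counted with complex IV, where the Ndufa4 protein is now placed.

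The cells were MIN6, a mouse insulinoma line of C57BL/6 background that stands in for pancreatic beta cells, so every library comes from 1 line. Low arginine cells were kept in medium with 0.1 times the standard arginine concentration, high arginine cells with 20 times and standard arginine cells with 1 times that concentration, each for 24 h. Each group had 3 RNA-seq libraries made from total RNA, with 21550637 to 26300872 reads in genes. Nothing in the labels says that replicates came from separate cultures, and the p-values therefore reflect the variation among these libraries alone, which may be technical. In such bulk RNA, fewer cells of a type and less RNA per cell cannot be told apart.

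Complex I takes electrons from NADH and complex II takes them from succinate, and both pass them to ubiquinone. Complex III hands them on to cytochrome c and complex IV to oxygen, while ATP synthase, or complex V, uses the proton gradient made by complexes I, III and IV. In beta cells this chain couples glucose oxidation to the ATP rise that triggers insulin release. Most subunits are nuclear-encoded and are joined in the inner membrane to a few mitochondrially encoded core subunits. Several complex IV subunits have a widespread form and a second form named for heart and muscle, lung or testis.

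Values are FPKM, reads scaled by gene length and library size as the authors computed them. A gene was tested if it had at least 1 FPKM in at least 3 of the 9 libraries, which kept 80 of the 86 rows. The 6 left out were Cox4i2, Cox8b, Cox8c and a second Atp5o entry, all listed at 0 FPKM in every library, and Cox6b2 and Cox7b2, which had at most 26 reads in any library. Tests used limma on log2(FPKM + 1), with Benjamini-Hochberg adjustment over all 12300 genes tested and a threshold of 0.05, and log2 changes are on that scale. The tested genes had mean levels of 0.778 to 869 FPKM with a median of 70.1 FPKM, and 52 of them exceeded 50 FPKM. The median coefficient of variation between replicates was 4.62% for low arginine, 7.10% for standard arginine and 4.11% for high arginine. Ndufa12 had the widest spread in each group, reaching 60.5% in standard arginine.

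In low against standard arginine, 53 of the 80 tested members fell, 10 rose and 17 did not pass the test. Over all genes tested, 31.9% fell and 30.3% rose. Every low arginine library lay below every standard one for 51 members and above for 11, beside 33.4% and 32.0% of all genes. The median log2 change of the tested members was -0.32, beside 0.001 over all genes. Complex IV had the lowest median, -0.67, followed by complex V at -0.34, complex I at -0.26, complex II at -0.18 and complex III at -0.08. Rescaling to TPM moved the median of all genes to 0.115, and 45 members fell and 18 rose. After quantile normalization 40 members fell and 22 rose. Of all 12300 genes, 3923 fell and 3723 rose as deposited. These counts were 3018 and 4843 with TPM, and 3712 and 3932 with quantile normalization. The median of complex III alone changed sign under these scalings, to 0.05 and 0.12, while that of complex IV was -0.55 and -0.27. Of the 52 members with a mean of at least 50 FPKM, 35 fell and 5 rose, with a median of -0.31. Among all 993 genes at that level, 54.8% fell and 20.9% rose, with a median of -0.24. Of the 28 members below that level, 18 fell and 5 rose, with a median of -0.32. Among all genes there, 29.9% fell and 31.1% rose, with a median of 0.02. Gene length in the table moved with the change as well: among genes under 1500 bases, the median was -0.40 for the 37 members and -0.13 over all genes. The part of level and length in the members' changes was not tested.

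**Figure D1:**
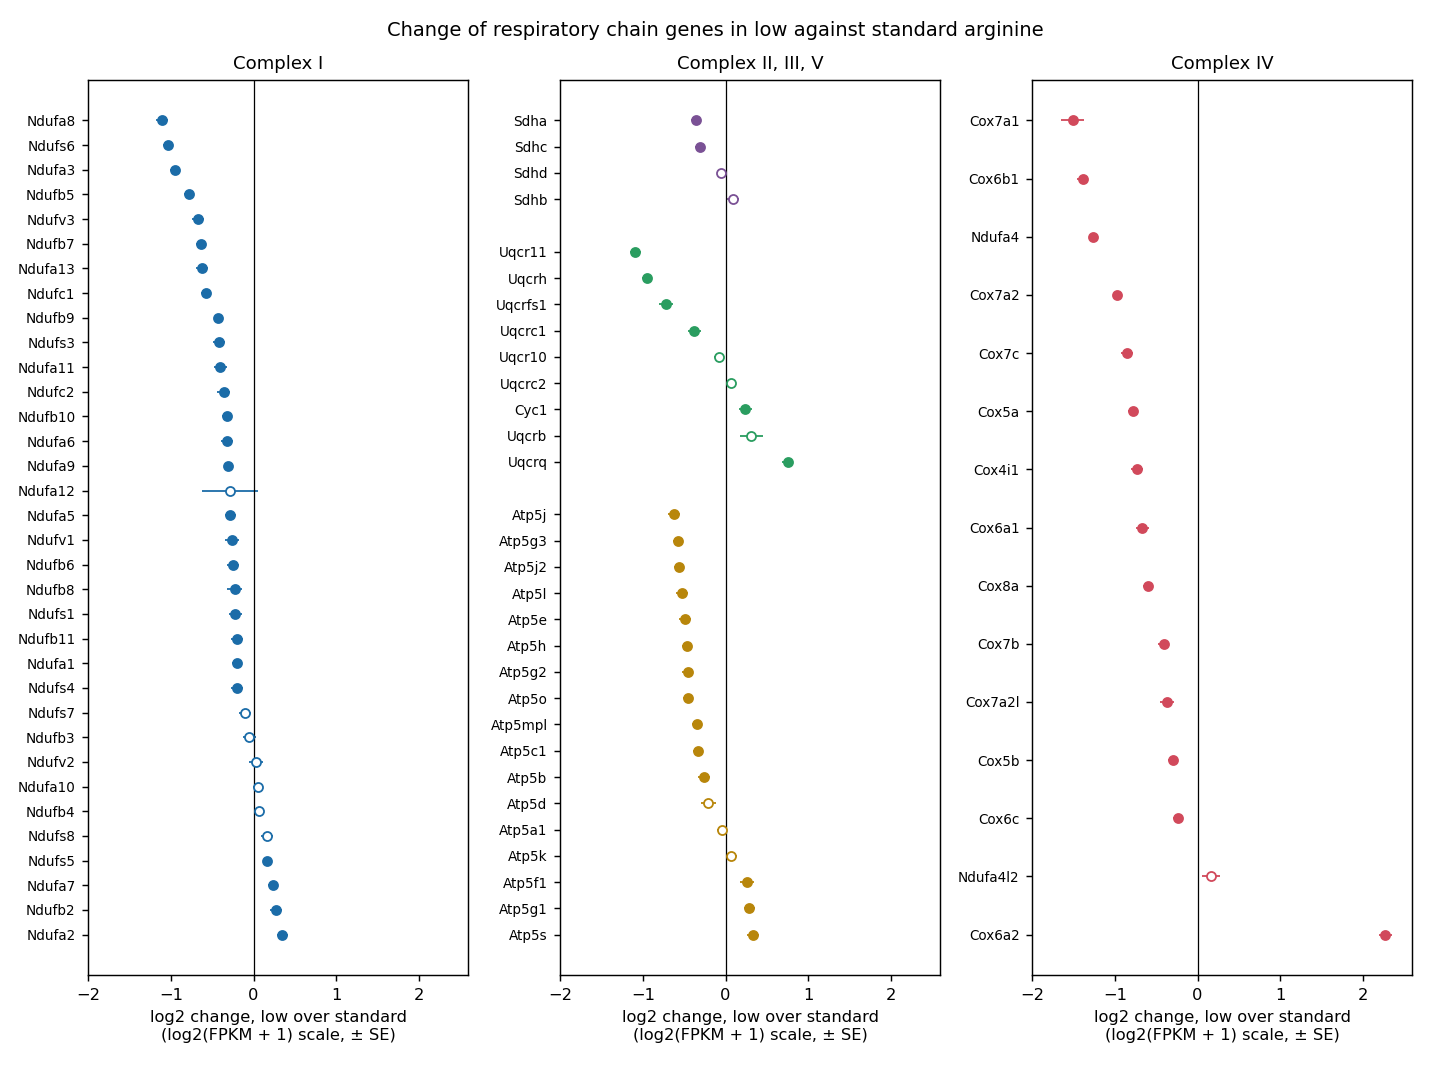
Log2 change of the tested genes reported by name in low over standard arginine, with bars for the standard error; filled points passed an adjusted p of 0.05 (limma, 3 libraries per group). In complex IV, Cox6a2 stands at 2.27 while the 12 widespread forms lie between -1.39 and -0.24.

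Levels were also summed by complex on the FPKM scale. The complex IV genes summed to 1919, 1957 and 1922 FPKM in low arginine, against 3142, 3247 and 2825 FPKM in standard arginine. The 3 low arginine libraries lay below every standard arginine library. The complex V sum was 1656 ± 24.0 FPKM in low against 2010 ± 124 FPKM in standard arginine, and that of complex I was 2815 ± 57.0 against 3238 ± 130 FPKM (SD, n = 3 each). Both of these sums also lay apart. For complex III, the sums of 915 to 944 FPKM in low and 931 to 1042 FPKM in standard arginine overlapped, and for complex II those of 202 to 215 FPKM in low and 213 to 234 FPKM in standard arginine also overlapped. High arginine sums were 3202 ± 59.8 for complex I, 3051 ± 82.2 for complex IV and 2105 ± 58.9 FPKM for complex V. All members together took 1.22% of reads in genes at low arginine, 1.38% at the standard level and 1.40% at high arginine.

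**Figure D2:**
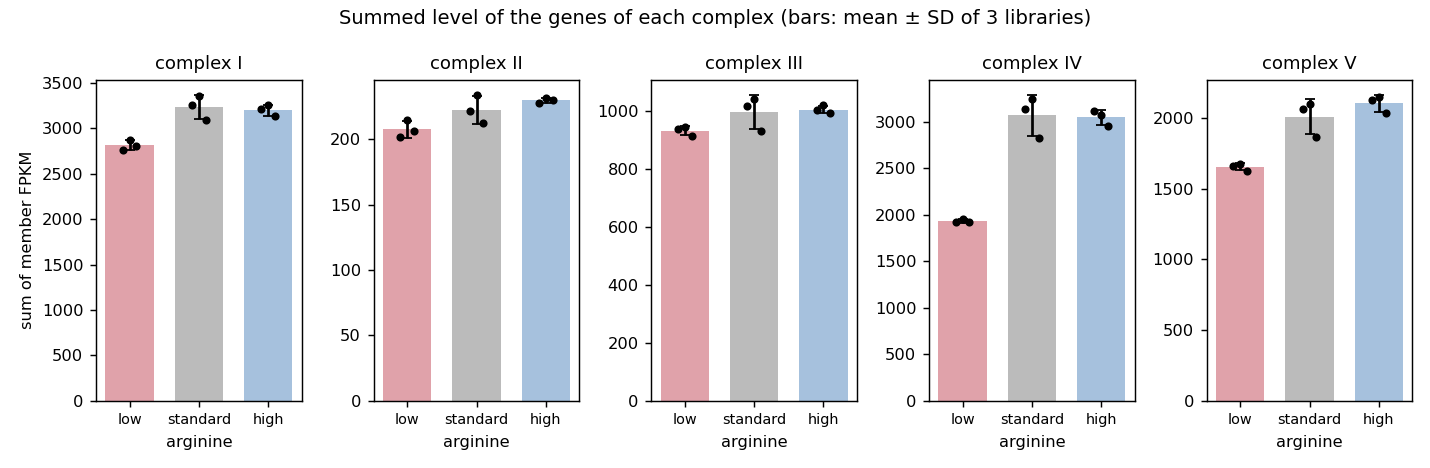
Summed FPKM of the member genes of each complex, with bars for the mean and SD and points for the 3 libraries of each group. The low arginine points lie below those of standard arginine for complexes I, IV and V, with complex IV at 1933 against 3071 FPKM.

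Promoter sequences were taken from RefSeq on GRCm38.p6, which held 66 of the 85 member symbols. They are shown to set members that moved and had an entry beside the sites of known regulators of the chain. NRF1 and the ETS factor GABP are transcription factors known for binding promoters of respiratory chain genes. Windows ran from 250 bases before to 50 after the gene start. A gene with several entries was counted once, if any of its windows held the string. The 27025 genes with an entry had 32851 windows. GCGCANGC, an NRF1-type string, was found on either strand for 23 of 63 tested members (36.5%). It was found for 11.2% of all 27025 genes with a promoter entry, whether or not they were tested here. CCGGAAG, an ETS-type string, was found for 25.4% of these members against 9.93% of genes, and AAGATGG, a YY1-type string, for 15.9% against 7.28%. TGATGNAA is found at sites shared by ATF4 and CEBP factors of the amino acid response. It was found for 0 of the 63 members, against 4.51% of genes. ACGTGC, the core of hypoxia response elements, was found for 4.76% of members against 6.68% of genes. None of these 5 strings contains another. By complex, the NRF1-type string was found for 8 of 13 members in complex V and 9 of 31 in complex I. The counts were 3 of 3 in complex II, 2 of 5 in complex III and 1 of 11 in complex IV. The same string was found for 18 of 47 members that fell in low arginine, 1 of 4 that rose and 4 of 12 that did not pass. Only these 4 of the 10 members that rose had an entry. Cox6a2, Uqcrq, Cyc1, Ndufa2, Atp5f1 and Atp5s had none. The 150 bases before the RefSeq start are printed for the gene of each complex with the largest fall and a single such start. They are also printed for Atp5g1, which rose, beside its partner Atp5g3. For Ndufa8 the RefSeq start lay 68 bases inside the gene span of the deposited data. The distance was 40 bases for Sdha, 39 for Atp5g1, 27 for Cox7a1, 9 for Uqcr11 and 0 for Atp5g3. Capitals mark NRF1-type matches in Ndufa8 and Sdha and an ETS-type match in Uqcr11. Ndufa8 lies at chr2:36049339-36049488, Sdha at chr13:74350241-74350390, Uqcr11 at chr10:80406822-80406971, Atp5g3 at chr2:73911327-73911476 and Atp5g1 at chr11:96075632-96075781, all on the minus strand, and Cox7a1 at chr7:30184021-30184170 on the plus strand.
Ndufa8: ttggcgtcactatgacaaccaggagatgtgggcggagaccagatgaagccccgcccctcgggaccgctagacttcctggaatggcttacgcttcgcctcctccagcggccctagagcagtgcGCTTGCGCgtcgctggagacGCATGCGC
Sdha: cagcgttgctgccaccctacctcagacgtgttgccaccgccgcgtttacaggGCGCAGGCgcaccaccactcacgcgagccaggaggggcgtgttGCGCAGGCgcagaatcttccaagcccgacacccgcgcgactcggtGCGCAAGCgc
Uqcr11: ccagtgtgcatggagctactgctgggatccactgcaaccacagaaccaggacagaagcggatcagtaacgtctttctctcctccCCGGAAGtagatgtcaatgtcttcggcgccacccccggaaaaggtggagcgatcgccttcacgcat
Cox7a1: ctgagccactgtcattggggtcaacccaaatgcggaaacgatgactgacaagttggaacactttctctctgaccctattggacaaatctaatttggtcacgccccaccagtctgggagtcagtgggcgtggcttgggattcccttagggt
Atp5g3: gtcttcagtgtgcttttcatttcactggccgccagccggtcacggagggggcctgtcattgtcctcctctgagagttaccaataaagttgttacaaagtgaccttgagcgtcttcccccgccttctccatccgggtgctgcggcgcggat
Atp5g1: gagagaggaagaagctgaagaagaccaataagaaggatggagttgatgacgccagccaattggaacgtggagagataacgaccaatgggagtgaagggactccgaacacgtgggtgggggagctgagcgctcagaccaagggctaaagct
Ndufa8 held 2 NRF1-type matches in these bases and Sdha held 3, while the printed bases of Cox7a1, Atp5g3 and Atp5g1 held none of the 5 strings. A match is a description of letters and no evidence of binding.

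In complex I, 23 of 35 genes fell in low against standard arginine, 4 rose and 8 did not pass. The counts were 16 falls and 8 rises with TPM, and 14 falls and 9 rises with quantile normalization, at medians of -0.14 and -0.12. Over all 12300 genes, 31.9% fell and 30.3% rose as deposited. All-gene falls and rises numbered 3018 and 4843 with TPM, and 3712 and 3932 with quantile normalization. Its N module, which oxidises NADH, had 6 falls and 2 rises among 10 genes. The Q module, which reduces ubiquinone, had 2 falls and 0 rises among 5. All remaining genes of the complex, counted here as the membrane arm, had 15 falls and 2 rises among 20. The largest fall was that of Ndufa8, an accessory subunit of the membrane arm, with 53.2, 57.1 and 52.0 FPKM in low arginine against 121.7, 126.2 and 105.8 FPKM in standard arginine. Its groups did not overlap, at a ratio of 0.459 and a log2 change of -1.11 (SE 0.07, adjusted p 4.5e-07). Ndufs6, a zinc-binding accessory subunit, had 24.9, 26.3 and 27.4 FPKM in low against 56.3, 54.3 and 54.1 FPKM in standard arginine, a log2 change of -1.04 (SE 0.06). Ndufa3, a small membrane-arm subunit, had 39.0, 40.7 and 43.9 FPKM in low against 83.0, 78.0 and 81.1 FPKM in standard arginine, a log2 change of -0.95 (SE 0.06). For Ndufs6 and Ndufa3, every low arginine library was below every standard arginine library.

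The core subunits of complex I named next had smaller log2 changes than Ndufa8, Ndufs6 and Ndufa3. Ndufv1, the flavoprotein that takes up electrons from NADH, averaged 50.1 FPKM in low against 60.3 FPKM in standard arginine, a log2 change of -0.26 (SE 0.08, adjusted p 0.014). Ndufs1, the largest iron-sulphur subunit, changed by -0.22 and Ndufs3 by -0.42, both past the threshold. Ndufs7, at the quinone site, changed by -0.10 and did not pass, nor did Ndufv2 at 0.03 or Ndufs8 at 0.16. The other accessory genes that fell ranged from -0.78 for Ndufb5 to -0.20.

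The complex I genes that rose did so by little. Ndufa2, an accessory subunit of the N module, had 315.2, 289.9 and 278.9 FPKM in low against 243.8, 232.2 and 215.3 FPKM in standard arginine, a log2 change of 0.35 (SE 0.07, adjusted p 0.00094). Ndufa7 had 55.5, 50.6 and 53.3 FPKM in low against 45.5, 47.8 and 42.5 FPKM in standard arginine, a log2 change of 0.23 (SE 0.06). Ndufs5, in the membrane arm, had 191.1, 203.8 and 208.0 FPKM in low against 180.5, 184.4 and 173.8 FPKM in standard arginine, a log2 change of 0.16 (SE 0.05). None of these had overlapping groups. Ndufb2 rose by 0.27 at a low level, 2.66 against 2.03 FPKM.

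Complex II, made of 4 subunits that are all nuclear-encoded, had 2 falls and 0 rises, with 2 and 1 under TPM and 2 and 2 under quantile normalization. So small a complex cannot be set apart from the 31.9% of all genes that fell and the 30.3% that rose. Sdha, the flavoprotein that oxidises succinate, had 32.1, 35.8 and 35.0 FPKM in low against 43.7, 45.0 and 43.8 FPKM in standard arginine, a log2 change of -0.36 (SE 0.06, adjusted p 0.0003). Sdhc, a membrane anchor, had 20.3, 22.6 and 21.9 FPKM in low against 27.3, 28.0 and 25.8 FPKM in standard arginine, a log2 change of -0.31 (SE 0.06). Both genes were lower in each low arginine library than in any standard arginine library. Sdhb, the iron-sulphur subunit, had 55.5, 58.1 and 55.4 FPKM in low against 53.8, 57.0 and 48.0 FPKM in standard arginine. Sdhd, the other anchor, had 94.3, 98.4 and 93.9 FPKM in low against 96.8, 103.9 and 95.3 FPKM in standard arginine. Neither Sdhb, at 0.09, nor Sdhd, at -0.05, passed the test, and both had overlapping groups. Under quantile normalization Sdhd changed sign to 0.17.

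Complex III was divided, with 4 genes that fell, 2 that rose and 3 that did not pass among 9. These are 44.4% and 22.2% of its genes, against 31.9% and 30.3% of all genes. With TPM 4 fell and 4 rose, and with quantile normalization 4 fell and 5 rose. Uqcr11, a small subunit, had 98.9, 92.6 and 91.1 FPKM in low against 208.4, 213.8 and 182.1 FPKM in standard arginine, a log2 change of -1.09 (SE 0.07, adjusted p 3.4e-07). Uqcrh, the hinge protein at the cytochrome c1 side, had 53.5, 53.9 and 52.6 FPKM in low against 109.9, 106.4 and 96.9 FPKM in standard arginine, a log2 change of -0.95 (SE 0.06). Uqcrfs1, the Rieske iron-sulphur protein of the electron path, had 51.5, 62.6 and 63.0 FPKM in low against 98.0, 100.9 and 94.5 FPKM in standard arginine, a log2 change of -0.72 (SE 0.08). These 3 genes had no overlap between groups. Uqcrc1, a core protein, fell by 0.38 on the log2 scale.

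Uqcrq, another small subunit of complex III, had 308.4, 288.4 and 298.4 FPKM in low against 192.0, 182.0 and 160.1 FPKM in standard arginine. Every low arginine library was above every standard one, with a ratio of 1.68 and a log2 change of 0.75 (SE 0.07, adjusted p 5.7e-06). Cyc1, cytochrome c1, had 100.8, 90.9 and 87.3 FPKM in low against 83.7, 83.5 and 69.7 FPKM in standard arginine, a log2 change of 0.24 (SE 0.08, adjusted p 0.029). Its groups came close without overlapping. Uqcrb, Uqcrc2 and Uqcr10 changed by 0.31, 0.07 and -0.08 and did not pass, with a standard error of 0.14 for Uqcrb.

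In complex IV, 13 of the 15 tested genes fell in low against standard arginine, 1 rose and 1 did not pass. Falls made up 86.7% and rises 6.67%, against 31.9% and 30.3% of all genes. All 12 widespread forms fell, with a median log2 change of -0.70. Cox6b1, a subunit on the outer face of the complex, had 94.5, 102.5 and 97.0 FPKM in low against 256.8, 269.3 and 247.9 FPKM in standard arginine. At a ratio of 0.380, its log2 change was -1.39 (SE 0.07, adjusted p 6.6e-08), with no overlap. Ndufa4 had 39.3, 43.0 and 41.4 FPKM in low against 97.9, 102.1 and 100.2 FPKM in standard arginine, a log2 change of -1.26 (SE 0.05). Cox4i1, which carries the nucleotide-binding regulatory site of the complex, had 150.1, 146.5 and 142.4 FPKM in low against 255.2, 251.7 and 223.8 FPKM in standard arginine, a log2 change of -0.73 (SE 0.07). Cox5a, Cox7c and Cox5b, other structural subunits, changed by -0.78, -0.85 and -0.30, and Cox6c by -0.24. With TPM, 12 complex IV genes fell and 1 rose, and with quantile normalization 10 fell and 1 rose. Counting Ndufa4 and Ndufa4l2 with complex I instead gave that complex 24 falls and 4 rises among 37 genes and left complex IV with 12 and 1 among 13.

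Subunit 6a was the pair in which both forms moved apart. Cox6a2, the heart and muscle form (chr7:128205435-128206387, minus strand, GRCm38), had 70.7, 62.1 and 61.3 FPKM in low against 12.9, 13.8 and 11.2 FPKM in standard arginine. It was higher in each low arginine library, with a ratio of 5.12 and a log2 change of 2.27 (SE 0.08, adjusted p 1.4e-08). Cox6a1, the widespread form (chr5:115345642-115348981, minus strand), had 634.9, 611.6 and 623.2 FPKM in low against 1048, 1078 and 869.2 FPKM in standard arginine, a log2 change of -0.67 (SE 0.08, adjusted p 3.3e-05). Cox6a2 made up 9.40 ± 0.55% of the summed FPKM of both genes in low against 1.25 ± 0.031% in standard arginine (SD, n = 3 each). The shares did not overlap, with an exact two-sided permutation p of 0.1, the smallest that 3 against 3 libraries can give. Cox6a1 remained the more abundant form in every library. Their sum was 687.9 FPKM in low against 1011 FPKM in standard arginine. The rise of Cox6a2 was 2.45 with TPM and 2.38 with quantile normalization. It rested on 172 to 1262 reads per library.

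Subunit 7a ran the other way. Cox7a1, the heart and muscle form (chr7:30184144-30186078, plus strand), had 3.35, 3.32 and 2.65 FPKM in low against 8.40, 13.4 and 10.7 FPKM in standard arginine, a log2 change of -1.51 (SE 0.14, adjusted p 7.3e-06) on 40 to 186 reads per library. Cox7a2, the widespread form, had 72.4, 70.1 and 72.0 FPKM in low against 145.1, 145.7 and 133.8 FPKM in standard arginine, a log2 change of -0.97 (SE 0.05). Both forms were lower in every low arginine library. Cox7a1 made up 4.17 ± 0.53% of their sum in low against 7.11 ± 1.5% in standard arginine, with an exact permutation p of 0.1. Cox7a2l, a factor that joins complexes III and IV into supercomplexes, had 61.5, 67.8 and 72.9 FPKM in low against 84.6, 95.2 and 82.5 FPKM in standard arginine, a log2 change of -0.37 (SE 0.08). So the heart and muscle forms Cox6a2 and Cox7a1 changed in opposite directions, and that of subunit 8, Cox8b, was listed at 0.

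Markers of heart and skeletal muscle were scarce where these isoforms are usually found. The 6 markers Myh6, Myh7, Actc1, Acta1, Ckm and Tnnt2 summed to 0.629 to 0.780 FPKM in low and 0.729 to 1.14 FPKM in standard arginine, and none averaged 1 FPKM in any group. The 5 fibroblast and stromal markers summed to at most 0.148 FPKM. Of the 6 beta cell markers, Ins1, Ins2, Pdx1, Nkx6-1 and Mafa were abundant and Slc2a2 was near 0 in every group. These markers moved with low arginine too: Nkx6-1 rose to 189.6 FPKM in low against 66.2 FPKM in standard arginine, Pdx1 and Mafa rose by 1.31 and 0.33 on the log2 scale, Ins1 changed by -0.53, and Ins2 changed by 0.04 without passing. The 6 summed to 53290 to 54390 FPKM in low against 48440 to 55830 FPKM in standard arginine. The other islet markers Gcg, Ttr, Sst and Ppy summed to 9059 to 11570 FPKM in low against 6324 to 7198 FPKM in standard arginine. Sst and Ppy rose by 0.75 and 0.20 on the log2 scale, while Ttr and Gcg changed by -1.62 and -0.62. The part of these markers in the changes of the respiratory chain genes was not tested.

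The remaining complex IV pairs were held by the widespread form. Cox8a had 488.2 FPKM in low against 742.3 FPKM in standard arginine on average, a log2 change of -0.60 (SE 0.06), and neither Cox8b nor Cox8c had a value above 0. Cox7b averaged 54.4 FPKM in low against 72.7 FPKM in standard arginine, a log2 change of -0.41 (SE 0.07), while Cox7b2, the testis form, averaged 0.0915 and 0.185 FPKM. Cox6b2, the testis form of subunit 6b, had 0.447, 0.164 and 0.385 FPKM in low against 0.977, 0.653 and 0.642 FPKM in standard arginine and was below the filter. Ndufa4l2, known as a hypoxia-inducible gene, had 1.18, 0.894 and 1.17 FPKM in low against 1.10, 0.793 and 0.691 FPKM in standard arginine, with overlapping groups and a log2 change of 0.16 that did not pass. It rested on 9 to 36 reads per library and entered the test through 2 low and 1 standard arginine libraries.

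**Figure D3:**
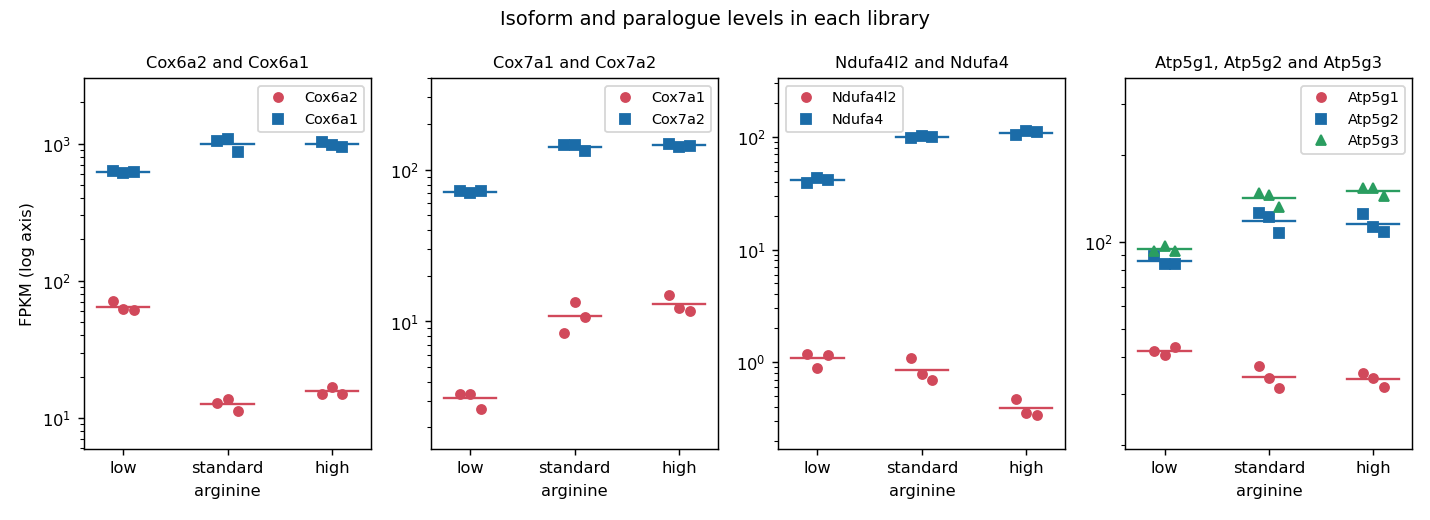
FPKM of isoform and paralogue genes in each library on a log axis, with points for libraries and lines for group means, ordered by arginine concentration. Cox6a2 is high in low arginine at 64.7 FPKM, Cox7a1 is low there at 3.11 FPKM, and Ndufa4l2 is at 0.390 FPKM in high arginine.

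In complex V, 11 of 17 tested genes fell in low against standard arginine, 3 rose and 3 did not pass. Falls made up 64.7% and rises 17.6%, against 31.9% and 30.3% of all genes. In the catalytic F1 head 3 of 5 genes fell and 0 rose. Atp5b, the catalytic beta subunit, had 374.0, 354.8 and 341.3 FPKM in low against 449.7, 445.3 and 386.5 FPKM in standard arginine, a log2 change of -0.26 (SE 0.07, adjusted p 0.0074), which turned to 0.13 with quantile normalization. Atp5a1, the alpha subunit, changed by -0.04 and did not pass, and under quantile normalization its change was 0.24. Atp5c1 and Atp5e, the gamma and epsilon subunits, changed by -0.33 and -0.49, and Atp5d, the delta subunit, changed by -0.21 without passing.

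Outside the F1 head, Atp5j, coupling factor F6 of the peripheral stalk, had 63.9, 71.7 and 70.3 FPKM in low against 100.2, 107.5 and 109.8 FPKM in standard arginine, a log2 change of -0.62 (SE 0.07, adjusted p 1.6e-05). Atp5j2, membrane subunit f, averaged 32.7 FPKM in low against 48.9 FPKM in standard arginine, a log2 change of -0.56 (SE 0.06). Atp5h and Atp5o, subunit d and OSCP of the stalk, changed by -0.47 and -0.45. Atp5l and Atp5mpl, small membrane subunits, changed by -0.53 and -0.34. Atp5f1, subunit b of the same stalk, had 59.7, 66.2 and 66.8 FPKM in low against 50.2, 55.7 and 54.4 FPKM in standard arginine, a log2 change of 0.26 (SE 0.08, adjusted p 0.015). Atp5s, a coupling factor that shares the name without being a structural subunit, rose by 0.33. Atp5k, membrane subunit e, changed by 0.07 and did not pass.

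The c ring is built from 1 mature protein encoded by Atp5g1, Atp5g2 and Atp5g3, and these genes did not move together. Atp5g3 had 93.1, 97.1 and 93.1 FPKM in low against 148.4, 145.6 and 132.1 FPKM in standard arginine, a log2 change of -0.58 (SE 0.06, adjusted p 1.2e-05). Atp5g2 had 89.6, 84.2 and 84.4 FPKM in low against 125.9, 122.4 and 107.9 FPKM in standard arginine, a log2 change of -0.46 (SE 0.07). Both were lower in every low arginine library. Atp5g1 had 42.2, 40.6 and 43.4 FPKM in low against 37.5, 34.0 and 31.4 FPKM in standard arginine, a log2 change of 0.29 (SE 0.07, adjusted p 0.0045). Atp5g1 made up 18.9 ± 0.67% of the summed FPKM of the 3 genes in low against 11.6 ± 0.39% in standard arginine, and the shares did not overlap (exact permutation p 0.1). The sum was 222.6 FPKM in low against 295.1 FPKM in standard arginine.

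In high against standard arginine, limma called 0 of the 80 tested members, 7 had an unadjusted p under 0.05, against 1762 of all 12300 genes, and the median log2 change was 0.01. Over all genes, 0.138% rose and 0.171% fell. The fit with voom weights also called 0 members. Changes of the members lay between -0.42 and 0.29. For 9 of the 80, every high arginine library lay above every standard one, and for 5 below. Over all genes these shares were 10.4% and 8.14%, so a lack of overlap alone does not set a member apart here. Ndufa4l2 had 0.471, 0.357 and 0.342 FPKM in high against 1.10, 0.793 and 0.691 FPKM in standard arginine, with no overlap. Its log2 change was -0.42 (SE 0.11, limma p 0.0033, adjusted p 0.14). No high arginine library reached the 1 FPKM filter, which the gene passed only through low and standard arginine libraries. This difference rests on 9 to 36 reads per library and is not read as a result. Cox6a2 had 15.0, 16.9 and 14.9 FPKM in high against 12.9, 13.8 and 11.2 FPKM in standard arginine, also without overlap, a change of 0.29 (limma p 0.0066, adjusted p 0.19). Its share of the subunit 6a genes was 1.56 ± 0.13% in high against 1.25 ± 0.031% in standard arginine (SD, n = 3 each, exact permutation p 0.1). Cox7a1 had 14.9, 12.3 and 11.8 FPKM in high against 8.40, 13.4 and 10.7 FPKM in standard arginine, with overlapping groups and a change of 0.25 that did not pass. The share of Atp5g1 among the c ring genes was 11.2 ± 0.064% in high against 11.6 ± 0.39% in standard arginine.

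The next smallest p-values in this comparison belonged to Ndufs8, Ndufv3, Atp5b and Cyc1. Ndufs8, an iron-sulphur subunit of the Q module, had 58.0, 56.5 and 56.5 FPKM in high against 67.5, 69.6 and 59.0 FPKM in standard arginine, a log2 change of -0.19 (limma adjusted p 0.24). Ndufv3, an N module accessory subunit, averaged 38.5 FPKM in high against 44.5 FPKM in standard arginine, a log2 change of -0.20, also at an adjusted p of 0.24. Atp5b averaged 480.4 FPKM in high against 427.2 FPKM in standard arginine, and Cyc1 90.4 against 79.0 FPKM, with changes of 0.17 and 0.20 and adjusted p-values of 0.29 and 0.32 from limma.

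**Figure D4:**
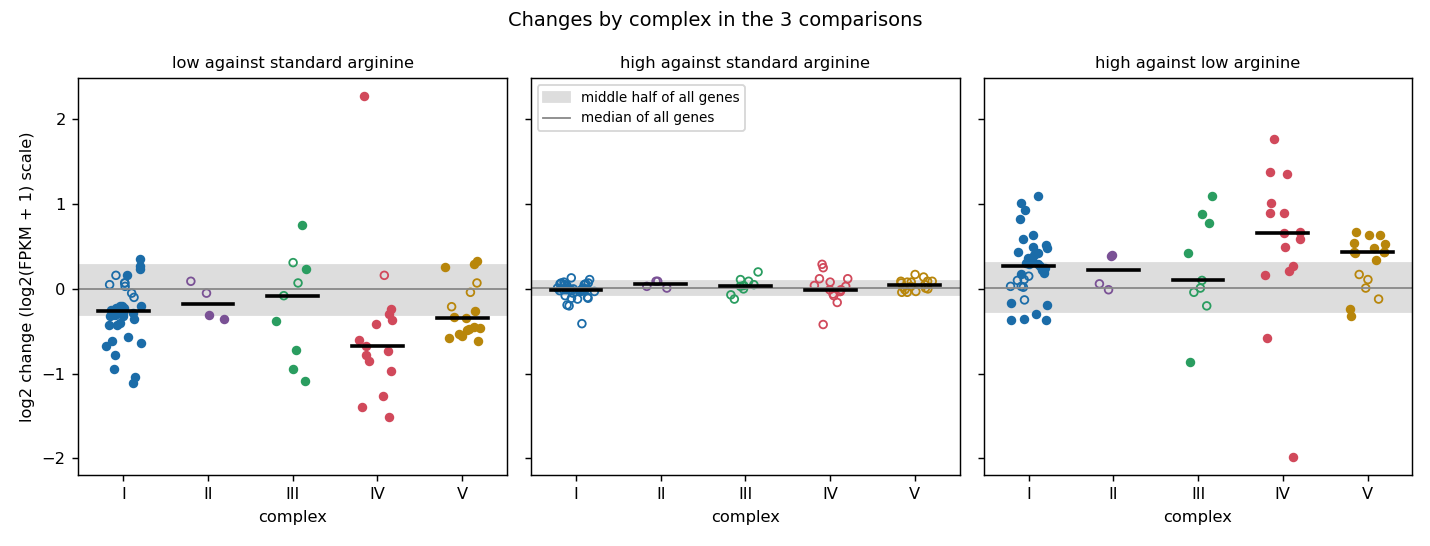
Log2 change of each tested gene by complex in the 3 comparisons, with black lines for the median of a complex, filled points past an adjusted p of 0.05, and a grey band from the 25th to the 75th percentile of all genes. All points are open in high against standard arginine, and complex IV has the medians farthest from 0 in the other two, -0.67 and 0.66.

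High against low arginine shares libraries with both other comparisons and tests the difference between the responses to high and to low arginine. Here 52 of 80 members were higher, 11 lower and 17 did not pass, with a median log2 change of 0.33, beside 0.010 over all genes. Over all genes, 32.3% were higher and 29.2% lower. With TPM 44 members were higher and 13 lower, and with quantile normalization 41 and 23. Among all 12300 genes, 3094 were higher and 4735 lower with TPM, and 3700 and 3927 with quantile normalization. By complex, 22 members were higher and 6 lower in complex I, 2 and 0 in complex II, 4 and 1 in complex III, 13 and 2 in complex IV and 11 and 2 in complex V. With quantile normalization these counts were 16 and 10, 2 and 2, 4 and 4, 9 and 2, and 10 and 5 in the same order, and the median of complex III turned to -0.10, against 0.10 as deposited. Cox6a2 was lower in high arginine, by -1.98 (SE 0.08, adjusted p 3.5e-08), and Cox7a1 higher, by 1.77 (SE 0.14).

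A few members passed in only 1 of the contrasts with low arginine. Ndufa4l2 averaged 1.08 FPKM at low, 0.862 FPKM at standard and 0.390 FPKM at high arginine. No high arginine library reached the 1 FPKM filter, and the gene was not tested when only high and low arginine were fitted. Its call in high against low arginine is therefore not read as a result. It is still counted among the 11 lower members of that comparison and the 2 of complex IV. Ndufs8 averaged 73.1 FPKM at low, 65.3 FPKM at standard and 57.0 FPKM at high arginine, and was lower in high than in low arginine by -0.35 (SE 0.07, adjusted p 0.00086). Ndufb4 changed by -0.19 between high and low arginine, past the threshold, and by 0.07 between low and standard arginine, short of it. Cyc1, Atp5f1 and Ndufa1 passed in low against standard arginine, at 0.24, 0.26 and -0.20, and changed by -0.04, -0.12 and 0.15 in high against low arginine without passing.

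Other genes of the pathway were compared in low against standard arginine, where 30.3% of all genes rose and 31.9% fell. Of 13 mitochondrially encoded subunits, 11 fell and 0 rose, but 7 fell and 1 rose with quantile normalization, mt-Co1 at 0.24. Their median log2 change was -0.53, with mt-Nd2 at -1.08, mt-Nd3 at -1.24, mt-Nd1 at -0.90 and mt-Co2 at -0.72. Of 52 tested assembly factors, 14 rose and 20 fell, which became 20 and 13 with TPM, shares near those of all genes. Cox20, needed for the assembly of mitochondrially encoded COX2, averaged 10.4 FPKM in low against 2.98 FPKM in standard arginine, a change of 1.52 (SE 0.09, adjusted p 2.1e-07). Cox10, of haem A synthesis, and Ndufaf4, of complex I assembly, changed by 0.51 and 0.58, and Ndufaf8 by -0.74. Of 25 tested carriers and other entry points, 6 rose and 7 fell, or 10 and 5 with TPM, also near the shares of all genes. The inner membrane carriers Slc25a5, for adenine nucleotides, and Slc25a3, for phosphate, changed by -0.86 and -0.80, and Ucp2, an uncoupling protein, by -1.54. Chchd4, of intermembrane space import, rose by 0.58. Cycs, cytochrome c itself, had 71.0 FPKM in low against 68.0 FPKM in standard arginine and did not pass, at 0.06 (adjusted p 0.55).

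Regulators of nuclear respiratory genes moved mostly up while the subunit genes moved mostly down. Of 15 tested, 10 rose and 3 fell, with a median of 0.39, and the counts were 10 and 3 with TPM and 9 and 3 with quantile normalization. Nrf1, the nuclear respiratory factor, had 4.43, 5.14 and 4.90 FPKM in low against 2.71, 2.71 and 2.69 FPKM in standard arginine, a log2 change of 0.65 (SE 0.06, adjusted p 7.1e-06). Gabpa, the DNA-binding subunit of GABP, had 9.34, 9.21 and 9.34 FPKM in low against 5.67, 4.94 and 7.01 FPKM in standard arginine, a change of 0.59 (SE 0.10), and its partner Gabpb1 rose by 0.75. Tfam, which packages and transcribes mitochondrial DNA, had 17.8, 21.7 and 20.6 FPKM in low against 9.72, 11.7 and 12.0 FPKM in standard arginine, a change of 0.79 (SE 0.10). For Nrf1, Gabpa and Tfam the groups did not overlap. Esrrg, a nuclear receptor of energy metabolism, rose by 0.74. The 3 that fell were Chchd2, a mitochondrial protein also found in the nucleus, Esrra and Clpp. They changed by -1.15, -0.56 and -0.31. Ppargc1a, the coactivator PGC-1alpha, was below the filter with 0.866 ± 0.0272 FPKM in low against 0.617 ± 0.143 FPKM in standard arginine. None of the tested regulators passed in high against standard arginine.

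**Figure D5:**
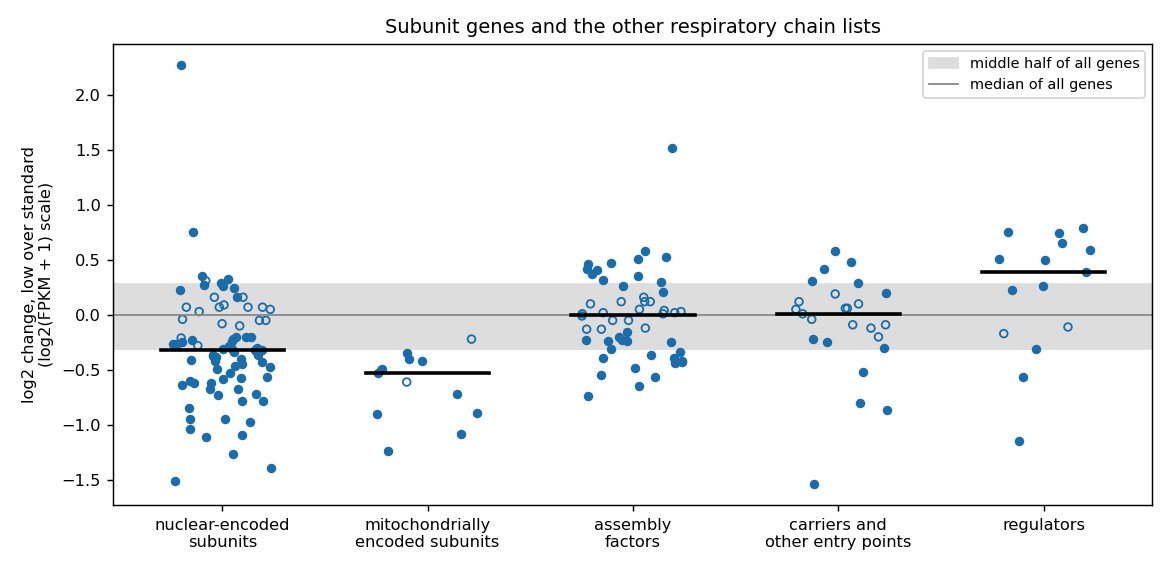
Log2 change in low over standard arginine for the nuclear-encoded subunits and the other lists, with black lines for medians, filled points past an adjusted p of 0.05 and a grey band from the 25th to the 75th percentile of all genes. The median is -0.32 for nuclear-encoded subunits, -0.53 for mitochondrially encoded ones and 0.39 for regulators.

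Some members share their position with another gene. Of the tested members, 19 overlap a gene on the opposite strand with a mean of at least 1 FPKM, of which 13 fell and 3 rose in low arginine. The sources used here do not give the strand mode of the read counter, so reads of such pairs may be mixed. Values for Ndufs1, Ndufs3, Ndufs6, Ndufa2, Ndufa3, Ndufb2, Ndufb5, Ndufb6, Ndufb11, Uqcrh, Cox4i1, Cox6c, Ndufa4l2, Atp5d, Atp5f1 and Atp5j, among those named, are uncertain to that extent. Atp5j overlaps Gabpa, and both moved in opposite directions. Cox20 overlaps Hnrnpu on the opposite strand. Processed pseudogenes that bear a member's name numbered 11 in the table and the highest, Ndufb4c, averaged 5.55 FPKM, while reads shared with near-identical copies could not be traced.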

How the data were processed

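RNA from MIN6 cells was sequenced in 9 libraries, 3 per group. FPKM per gene and the gene length used were deposited by the authors, who made libraries with a directional kit, per the labels' protocols. CASAVA 1.8, HISAT2 2.0.5 and featureCounts 1.5.0-p3 are listed, per the submitters' processing notes. These notes name mm9, but 98.33% of 54409 shared gene IDs carry GENCODE M21 positions on GRCm38, so GRCm38 is used here. FPKM multiplied by length gave whole reads in 100% of values under 2000 reads, to within 0.01, and these reads gave depth and the voom alternative. The library size behind FPKM was 1.057, 1.048 and 1.077 times the reads in genes in the low arginine libraries. It was 0.983, 0.962 and 1.016 times in standard and 0.969, 0.969 and 0.994 times in high arginine. FPKM in low arginine are thus lower relative to reads in genes than in the other groups. The part of this scaling in the changes was not tested.

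Genes with at least 1 FPKM in at least 3 of 9 libraries, 12300 in all, were fitted as log2(FPKM + 1) in limma 3.58.1 (R 4.3.3), with group as the only term, a trended prior and 6 residual degrees of freedom. This scale understates changes of low genes. Tests were two-sided, with Benjamini-Hochberg adjustment. The procedure was tested on simulated data. No replicate pair agreed within sampling noise (chi-square over its degrees of freedom 2.68 to 13.6). Union-exon length limits comparison of levels between genes. Alternatives covered the pseudocount, filters, TPM, quantile normalization, the variance model, voom weights, the 2 groups compared, a replicate block and leaving out each library.

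Values in every library are given for the 3 largest called rises and falls per complex in low against standard arginine (at least 5 FPKM in the higher group, no overlap), isoform pairs, Sdh subunits, the 6 smallest p-values in high against standard arginine, and up to 4 called genes of each other list, besides Nrf1, Gabpa, Tfam and Ppargc1a; some of these are given by their means. One member is counted but not reported by name here. Members and lists were chosen with earlier results of these data known. Unused per-sample columns numbered 0.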

Additional observations from a re-analysis of the deposited data

How the results depend on the processing

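The 0 calls among members in high against standard arginine held under every alternative run. In low against standard arginine, 18 members rose with TPM and 22 with quantile normalization, against 10 as reported, and in high against low arginine 23 were lower with quantile normalization, against 11; the cause was not tested. With quantile normalization, single members changed sign in low against standard arginine: Atp5a1 to 0.24, Atp5b to 0.13, Ndufa1 to 0.17, Ndufb11 to 0.12, Ndufb3 to 0.19, Sdhd to 0.17 and Uqcr10 to 0.12. In high against low arginine, the same setting gave Atp5a1 -0.20, Atp5k -0.25, Cox6c -0.00, Ndufa1 -0.23, Ndufb11 -0.13, Ndufb3 -0.25, Ndufb6 -0.03, Sdhd -0.17 and Uqcr10 -0.10. Leaving out 1 library at a time kept between 7 and 12 members rising and between 50 and 53 falling for low against standard arginine, and 47 to 53 higher and 8 to 11 lower members in high against low arginine. Same-numbered libraries of different groups correlated above 0.1 in 6 of 9 pairs, with a range of -0.0355 to 0.243. The labels give replicate numbers without a batch or day, so a shared replicate effect was neither assumed nor excluded. A replicate block gave 12 rises and 54 falls in low against standard arginine, against 10 and 53 without it. It gave 0 calls in high against standard arginine, and 54 higher and 12 lower members in high against low arginine. Reads were fewest for Ndufa4l2 and Cox7a1, with standard errors of 0.11 and 0.14 in low against standard arginine. Precision did not follow reads alone. Ndufa12 had a standard error of 0.34 on 753 to 2229 reads, and Uqcrb 0.14 on 1086 to 2049 reads.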
